A study of Homo sapiens with 6 samples.

Results

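The subunits of the receptors for GABA, the main inhibitory transmitter of the brain, were measured in SH-SY5Y cells with and without an inhibitor of the microRNA miR-137. The members are 7 GABA receptor subunit genes, not the whole family, of 18244 genes with a probe set. They were chosen with earlier results of these data known. Each was followed through every probe set annotated to exactly 1 of them: *GABRA2*, *GABRA3*, *GABRA5*, *GABRB1*, *GABRB2*, *GABBR1* and *GABBR2*. They held 18 of the 45278 probe sets with 1 gene symbol and of the 49393 probe sets tested. SH-SY5Y is a human neuroblastoma cell line in wide use as a model of neurons. Per the labels, cells were transfected with an anti-miR against hsa-miR-137 or with Anti-miR Negative Control #1, both at 15 pM and with the same lipid reagent. Transfection followed seeding by 24 hours and RNA was taken 72 hours later, with 3 arrays per treatment, numbered 1 to 3 in both.

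GABA-A receptors are chloride channels built from several subunits around a central pore, and GABA binds where an alpha and a beta subunit meet. *GABRA2*, *GABRA3* and *GABRA5* encode alpha subunits, and *GABRB1* and *GABRB2* encode beta subunits. GABA-B receptors are slow, G protein-coupled receptors made of *GABBR1*, which binds GABA, and *GABBR2*, which couples to the G protein and brings *GABBR1* to the cell surface. In the mature brain these receptors inhibit neurons, whereas in immature neurons, with more chloride inside the cell, GABA-A channels can depolarise. The study asked which mRNAs change when miR-137 is inhibited.

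The inhibited microRNA is shown because every comparison of treatments rests on it. Its mature arms, from RefSeq (GRCh38.p14), are written 5′ to 3′ with the seed, bases 2 to 8, in capitals. The 3p arm lies at chr1:98046091-98046113 and the 5p arm at chr1:98046127-98046149, both on the minus strand.
hsa-miR-137-3p: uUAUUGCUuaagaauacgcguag
hsa-miR-137-5p: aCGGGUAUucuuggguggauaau
The labels do not name the arm that the anti-miR was directed at, and the level of miR-137 itself was not measured here.

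Array medians lay between 6.39 and 6.43 on the log2 scale, and RNA integrity numbers between 9.5 and 9.8. The labels number the replicates but do not say whether these were separate cultures, so the spread that p-values rest on may be technical, and the small number of arrays limits the precision. Of 8 noradrenergic neuroblastoma markers listed, 7 had a probe set and all 7 were above the background limit defined below, among them *HAND2* (13.97), *ISL1* (12.86) and the noradrenaline-forming enzyme gene *DBH* (12.71), as means of 6 arrays. Of 9 markers of GABAergic interneurons, 3 were above it (*VIP*, *DLX6* and *NKX2-1*), while *DLX1*, *DLX2*, *DLX5*, *LHX6*, *SST* and *PVALB* were not. The mean level of the 9 interneuron markers lay between 5.40 and 5.61 in anti-miR-137 arrays and between 5.42 and 5.51 in control arrays. None of the 5 glutamatergic neuron markers with a probe set was above the limit, whereas 3 of 5 astrocyte and Schwann cell markers and 6 of 8 markers of the mesenchymal neuroblastoma state were. Read the same way, from the brightest probe set, 64.9% of all 18244 genes were above it.

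*GABBR1* was the only member with signal above background. The background was read from 360 probe sets of olfactory receptor genes, whose expression is largely restricted to the olfactory epithelium. Their means over 6 arrays had a median log2 value of 4.42, and their 95th percentile, 6.06, was taken as the limit. All 3 probe sets of *GABBR1* exceeded it, and none of the other 15 did. Over the whole array 54.8% of probe sets exceeded the limit, against 3 of 18 here. Signals of different probe sets cannot be ranked as transcript levels, because each binds its target differently, so members are set against the background and not against each other. In RNA from whole cultures, few cells with the transcript and little transcript per cell cannot be told apart.

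The brightest *GABBR1* probe set, 11721553_a_at, measured 7.69, 7.81 and 7.56 in control replicates 1, 2 and 3. It measured 7.71, 7.89 and 7.59 in the anti-miR-137 replicates. Every array lay above the limit, the treatments overlapped, and in both the replicate 2 array was highest and the replicate 3 array lowest. Its mean exceeded those of 99.2% of the olfactory receptor probe sets, and 3 of these were brighter still. Probe set 11730725_a_at measured 6.29, 6.09 and 6.04 in control and 6.28, 6.34 and 6.08 in anti-miR-137 arrays. Probe set 11721552_a_at measured 6.09, 6.23 and 5.96 in control and 6.09, 6.46 and 5.79 in anti-miR-137 arrays. These 2 lay just above the limit, by 0.13 and 0.04 log2 units in their means. Against the limit of each array on its own, 11721553_a_at and 11730725_a_at were above it in 6 of 6 arrays and 11721552_a_at in 3. The call for *GABBR1* depended on the reference: with the 99th percentile of the olfactory receptors as limit (7.34), 1 probe set remained above it. With taste receptor, keratin-associated protein and beta-defensin probe sets as reference, whose 95th percentile was 7.84, none did.

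**Figure D1:**
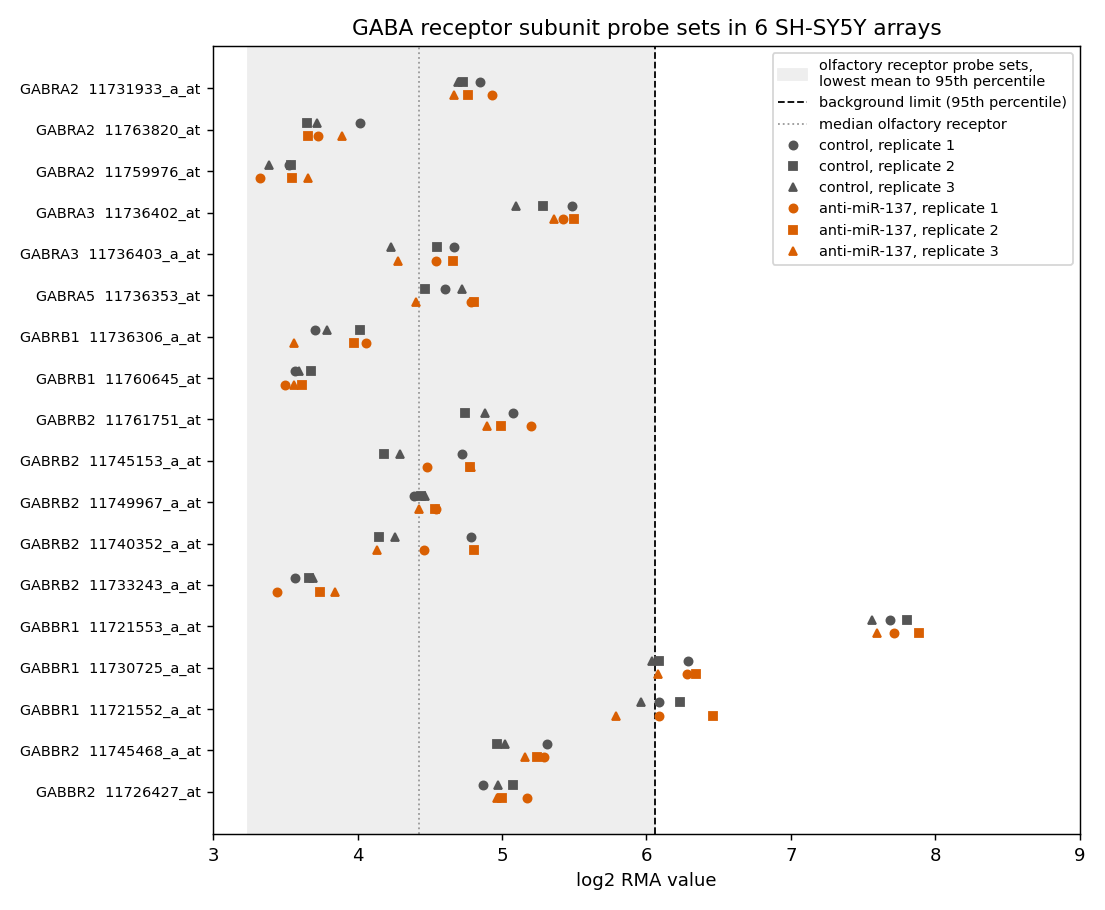
Log2 RMA values (horizontal axis) of the 18 probe sets (rows) in each of 6 arrays, grey for control and orange for anti-miR-137, with the marker shape giving the replicate number. The band runs from the lowest olfactory receptor mean to their 95th percentile (dashed line, 6.06), and among the members *GABBR1* alone has means beyond it.

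*GABBR2*, the partner that *GABBR1* needs at the cell surface, stayed within background on both its probe sets. The brighter, 11745468_a_at, measured 5.31, 4.96 and 5.02 in control replicates 1, 2 and 3 and 5.29, 5.25 and 5.16 in anti-miR-137 replicates. The other, 11726427_at, measured 4.87, 5.07 and 4.97 and then 5.18, 5.00 and 4.96 in the same order. The treatments overlapped on both, and the means exceeded those of 79.2% and 74.2% of the olfactory receptor probe sets. A signal in this range does not show that the transcript was missing; it was not distinguishable from background on these arrays.

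The alpha subunits gave no signal above background. *GABRA3*, on 11736402_at, came nearest to the limit, at 0.70 log2 units below it. It measured 5.48, 5.28 and 5.09 in control and 5.42, 5.49 and 5.36 in anti-miR-137 arrays. These values overlapped, with the lowest array among the controls. Its other probe set, 11736403_a_at, measured 4.67, 4.55 and 4.23 in control and 4.54, 4.66 and 4.28 in anti-miR-137 arrays, so that both replicate 3 arrays lay below the other 4. *GABRA5*, whose subunit is known from receptors outside the synapse, has 1 probe set here. It measured 4.60, 4.47 and 4.72 in control and 4.78, 4.81 and 4.41 in anti-miR-137 arrays, with the lowest and the highest array both in the anti-miR-137 group. *GABRA2* measured 4.85, 4.73 and 4.69 in control and 4.93, 4.76 and 4.67 in anti-miR-137 arrays on its brightest probe set, 11731933_a_at. All control values lay within the range of the anti-miR-137 values there, and the other 2 probe sets of *GABRA2*, with means of 3.78 and 3.50, lay below the median olfactory receptor.

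The beta subunits also gave no signal above background. *GABRB1* measured 3.70, 4.01 and 3.79 in control and 4.06, 3.97 and 3.56 in anti-miR-137 arrays on 11736306_a_at. Its other probe set ran from 3.49 to 3.68 over all 6 arrays. Both were among the dimmest 15% of what the olfactory receptors gave, at percentiles 14.7 and 4.17. *GABRB2* was covered by 5 probe sets with means from 3.66 to 4.96. On the brightest, 11761751_at, it measured 5.08, 4.74 and 4.88 in control and 5.20, 4.99 and 4.89 in anti-miR-137 arrays. Number by number, the anti-miR-137 array was the higher one, while across numbers the treatments overlapped. On 11745153_a_at it measured 4.73, 4.18 and 4.30 in control and 4.48, 4.78 and 4.78 in anti-miR-137 arrays. On 11740352_a_at it measured 4.79, 4.15 and 4.26 and then 4.46, 4.81 and 4.14. These 2 probe sets lay within 0.061 log2 units of each other in 5 arrays and 0.65 apart in anti-miR-137 replicate 3.

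Probe sets of 1 gene did not always vary together. Over the 6 arrays, 13 of the 19 pairs of probe sets of the same member had a Pearson correlation above 0, with a median of 0.28 and a range from -0.68 to 0.94. The highest belonged to 11721553_a_at and 11721552_a_at of *GABBR1*. The other 2 pairs of *GABBR1* had 0.62 each, and the pair of *GABRA3* had 0.79. The lowest was within *GABRB2*, whose 10 pairs ran from -0.68 to 0.62. They describe 6 arrays and are given without a test.

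No member passed the test of anti-miR-137 against control. With limma's moderated test over all 49393 probe sets and Benjamini-Hochberg adjustment, 0 of the 18 had an adjusted p under 0.05, and the smallest adjusted p was 1.00. That threshold was passed by 0% of all probe sets. At an unadjusted p under 0.05 there were 0 members, against 3.48% of all probe sets. In 0 of the 18 did the 3 anti-miR-137 arrays lie wholly above or below the 3 control arrays, as they did in 8.09% of all probe sets.

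*GABBR1*, on 11721553_a_at, measured 7.73 ± 0.15 (SD, n = 3) in anti-miR-137 and 7.69 ± 0.12 (n = 3) in control arrays. The log2 difference was 0.05, with a standard error of 0.10 and a 95% confidence interval from -0.19 to 0.28, which spans 0.88-fold to 1.22-fold. Its other probe sets gave 0.10 (-0.14 to 0.33) and 0.02 (-0.35 to 0.38). All 3 intervals thus included 0 and stayed within 0.5 log2 units of it. Replicate number was not a term in this fit, so these intervals also hold variation between numbers. Within replicate numbers 1, 2 and 3, the anti-miR-137 array was higher on 11721553_a_at by 0.02, 0.08 and 0.04. Without anti-miR-137 replicate 2 the difference between the group means was -0.032, and without control replicate 3 it was -0.016. Leaving out 1 array also leaves its replicate number in 1 treatment only, so these values cannot tell how far the sign rests on that array.

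For the other members the values are differences between signals that did not leave background. *GABBR2* gave 0.13 (95% confidence interval -0.11 to 0.37) and 0.08 (-0.13 to 0.28). *GABRA3* gave 0.14 (-0.11 to 0.38) and 0.01 (-0.30 to 0.33), and *GABRA5* gave 0.07 (-0.22 to 0.35). Every one of these intervals included 0. Without control replicate 1 the brightest probe sets gave 0.24 for *GABBR2*, 0.24 for *GABRA3* and 0.22 for *GABRB2*. In limma their unadjusted p were 0.025, 0.042 and 0.095, and the adjusted p was 0.92 for each. The share of all probe sets with an unadjusted p under 0.05 was not computed for this setting. *GABRA2* ranged from -0.04 to 0.03 over 3 probe sets and *GABRB1* from -0.06 to 0.03 over 2. On all 5 probe sets of *GABRB2* the difference was above 0, from 0.04 to 0.28. The largest, on 11745153_a_at, had a standard error of 0.15, an interval from -0.06 to 0.62 and an unadjusted p of 0.099 in limma, the smallest among the members. With the RNA integrity number as a covariate the sign turned for *GABRA2* (-0.063), *GABRA5* (-0.040), *GABRB1* (-0.034) and *GABRB2* (-0.023) on their brightest probe sets.

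Taken as counts, 16 of the 18 differences were above 0, where 54.2% of all probe sets and 66.4% of olfactory receptor probe sets were. This count depended on the scaling and the model: it was 12 with quantile normalization on top, 15 with median centring and 11 with the RNA integrity number as a covariate. The members' median difference was 0.06, beside 0.01 over all probe sets, 0.03 over those not above background and 0.06 over the olfactory receptor probe sets. Within replicate numbers, the anti-miR-137 array was the higher one in all 3 numbers for 2 member probe sets (11721553_a_at of *GABBR1* and 11761751_at of *GABRB2*) and the lower one for 1 (11760645_at of *GABRB1*). Over all probe sets these shares were 15.2% and 11.6%. The interval lay within 0.5 log2 units of 0 for 16 of the 18 members and for 93.4% of all probe sets. The 2 exceptions were 11745153_a_at and 11740352_a_at of *GABRB2*.

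**Figure D2:**
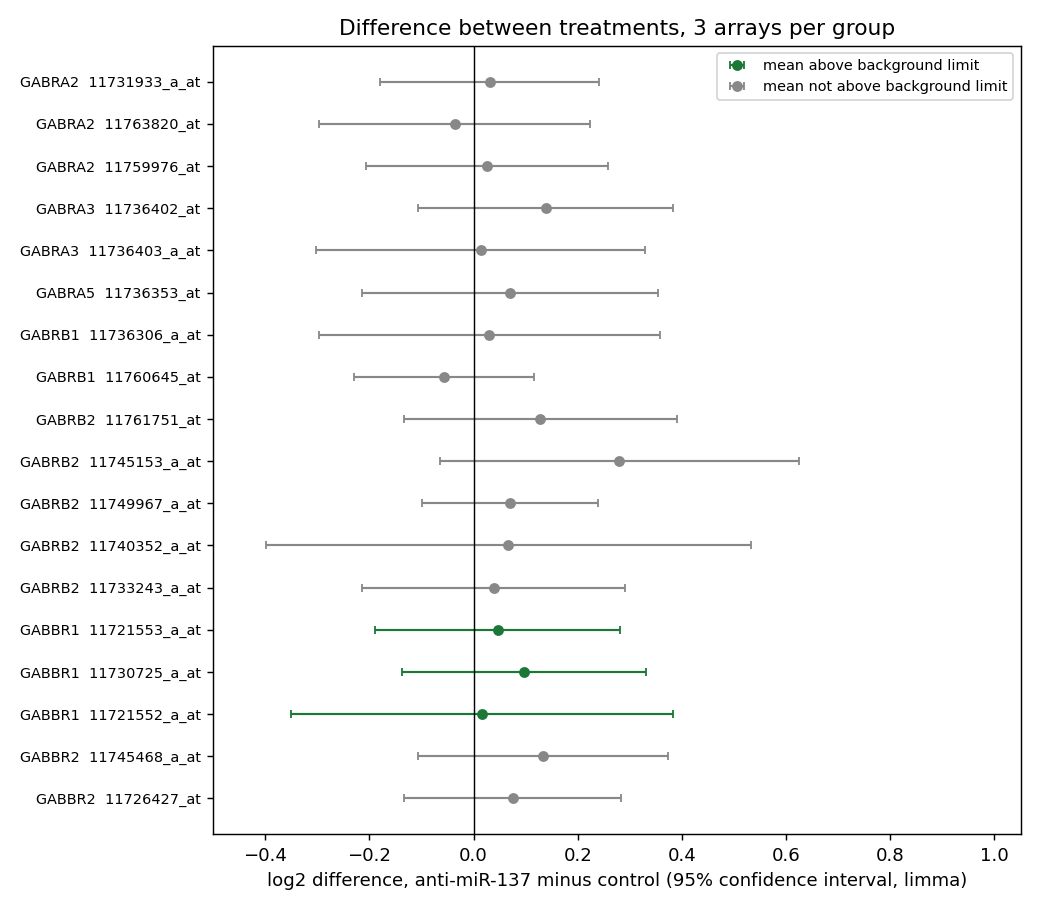
Log2 difference, anti-miR-137 minus control, of the 18 member probe sets (rows) with 95% confidence intervals from limma, 3 arrays per group; green marks means above the background limit. Every interval includes 0, and the widest is that of 11740352_a_at of *GABRB2*.

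On all 3 *GABBR1* probe sets the replicate number took up a larger share of the variation than the treatment. On 11721553_a_at the means of the numbers were 7.70, 7.85 and 7.58 for 1, 2 and 3, and the number took up 94.5% of the sum of squares over the 6 arrays against 4.20% for treatment. On 11721552_a_at they were 6.09, 6.35 and 5.88, with 84.4% against 0.16%. On 11730725_a_at they were 6.28, 6.21 and 6.06, with 61.0% against 16.2%. Replicate 3 had the lowest mean on each of the 3, and replicate 2 the highest on the 2 that correlated most. The number has 2 degrees of freedom and treatment 1, so shares of noise alone would also be larger for the number. Over all probe sets the median share was 49.7% for number and 9.91% for treatment.

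These differences did not pass the test across all probe sets. The moderated F test of limma for replicate number, with treatment as a term, called 0 of the 18 members at an adjusted p under 0.05, and 0% of all probe sets. For *GABBR1* the adjusted p was 0.34 on 11721553_a_at, 0.28 on 11721552_a_at and 0.47 on 11730725_a_at. Replicate 3 minus replicate 2 was -0.27, -0.47 and -0.15 log2 units in the same order, with adjusted p of 0.44, 0.42 and 0.62 in limma. At an unadjusted p under 0.05 the F test had 4 members, against 14% of all probe sets. They were 11721553_a_at and 11721552_a_at of *GABBR1*, 11736403_a_at of *GABRA3* and 11761751_at of *GABRB2*. Without anti-miR-137 replicate 3 none of the 18 reached it, and without control replicate 3 there was 1.

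Among dim members, *GABRA3* on 11736403_a_at had number means of 4.60, 4.61 and 4.25, with the number at 91.8% of the sum of squares. *GABRB2* on 11761751_at had 5.14, 4.87 and 4.89, so that there replicate 1 stood apart and not replicate 3. Replicate 3 had the lowest mean in 12 of the 18 members, in 39.8% of all probe sets and in 44.9% of those not above background. The labels do not say what the numbers stand for. The 95th percentile of the olfactory receptors, read per array, ranged from 5.88 to 6.16, so background itself varied between arrays by an amount close to these differences, and its part in them was not tested. Some markers of other cell states also differed by number at an unadjusted F p under 0.05 in limma, though none after adjustment. Over all genes above background, 15.4% did. Of the 7 noradrenergic and the 3 astrocyte and Schwann cell markers above background, 0 did. Among mesenchymal markers, 3 of the 6 above background did: *VIM* with number means of 13.70, 13.48 and 13.30, *YAP1* with 8.02, 7.50 and 7.38 and *FN1* with 9.13, 8.74 and 8.77. The rest of the 6 did not: *FOSL1* (6.22, 5.97 and 6.10) was highest in replicate 1. *SNAI2* (7.24, 7.09 and 7.61) and *TWIST1* (12.44, 12.36 and 12.47) were highest in replicate 3. Among interneuron markers, 2 of the 3 above background did: the neuropeptide gene *VIP* with 6.84, 7.41 and 8.55 (adjusted p = 0.15, limma) and *DLX6* with 7.17, 7.10 and 7.47. Over all 8 mesenchymal markers the mean level was 8.33, 8.13 and 8.16, and over all 9 interneuron markers 5.41, 5.42 and 5.56. Their part in the *GABBR1* values was not tested.

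**Figure D3:**
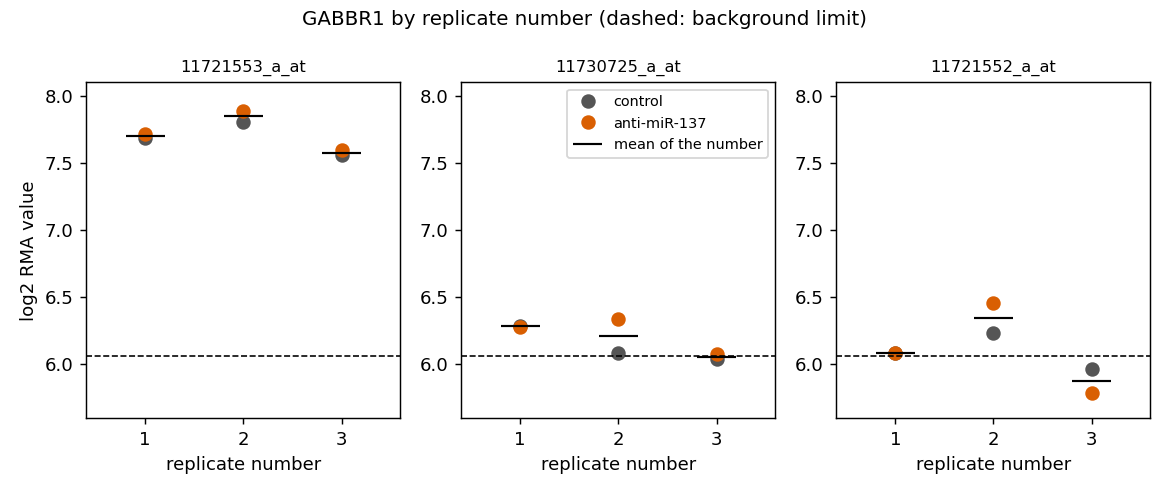
Log2 RMA values of the 3 *GABBR1* probe sets (panels) by replicate number, grey for control and orange for anti-miR-137, with the mean of each number as a bar and the background limit of 6.06 dashed. In each panel replicate 3 has the lowest mean.

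By the likeness rule, the genes above background whose brightest probe set followed *GABBR1* most closely over the 6 arrays were *TMEM198B* (r = 0.99), *RAPGEF2* (0.99) and *TLE5* (0.99). Of 11835 genes compared, 30 (0.25%) had an r over 0.95. With 6 arrays, such values are a description only. *TMEM198B* (6.97), *RAPGEF2* (10.62) and *TLE5* (11.48) had their highest values in anti-miR-137 replicate 2, the array in which *GABBR1* was highest too. They were picked for their likeness to *GABBR1*, so this adds nothing to the correlations.

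The rest of the receptor family was as dim. Of 14 further subunit genes listed, 11 had a probe set. Beside 64.9% of all genes, 1 of these was above the limit: the delta subunit gene *GABRD*, at 6.09 against 6.06. It measured 6.16 ± 0.061 in anti-miR-137 and 6.03 ± 0.11 in control arrays (SD, n = 3 each), a log2 difference of 0.13 (-0.06 to 0.33), and its number means were 6.19, 6.05 and 6.04. In the order of protein-coding genes in RefSeq (GRCh38.p14) *GABRA2* is next to *GABRG1*, and *GABRB1* is next to *GABRA4*, with 1 other protein-coding gene, *COX7B2*, between *GABRA2* and *GABRA4*. All 4 subunit genes of that cluster were within background, *GABRG1* with a mean of 3.91 and *GABRA4* with 3.72. *GABRQ*, the neighbour of *GABRA3* (5.53), *GABRG3*, the neighbour of *GABRA5* (4.31), and *GABRA6*, the neighbour of *GABRB2* (4.16), were within it too.

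Genes that make, carry and break down GABA were partly above background. Of 13 listed, 11 had a probe set and 6 were above the limit, beside 64.9% of all genes. The GABA-forming enzyme genes *GAD1* (mean 5.10) and *GAD2* (5.72) and the vesicular GABA transporter gene *SLC32A1* (5.22) were not. The GABA transaminase gene *ABAT* (8.72) and the succinic semialdehyde dehydrogenase gene *ALDH5A1* (8.03), which act in breakdown, and *ALDH9A1* (10.13) were. None of the 6 passed the test between treatments in limma; 2 had higher and 4 lower values, with a median log2 difference of -0.03, beside 0.0014 over all 11836 genes above background, of which 51.0% had higher values. The smallest p belonged to the betaine and GABA transporter gene *SLC6A12* (log2 difference 0.17, interval -0.05 to 0.40) and to *ALDH5A1* (log2 difference -0.11, interval -0.31 to 0.08). *SLC6A12* was dim, with a mean of 6.24. Its other 2 probe sets gave -0.07 and 0.17.

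Genes that anchor and move GABA-A receptors were mostly above background, unlike most of the subunit genes. Of 19 listed, 18 had a probe set and 17 were above the limit, beside 64.9% of all genes. Among them were the scaffold gene *GPHN* (8.80), the adhesion gene *NLGN2* (9.34) and the receptor-associated protein genes *GABARAP* (12.88) and *LHFPL4* (9.62). Many of them also serve other cargo or membranes. None passed the test between treatments. Of the 17, 7 had higher and 10 lower values, with a median of -0.01, where 51.0% of all genes above background had higher values. *PLCL2* had the largest difference of the 17, -0.23 (-0.51 to 0.04), and *GABARAPL1* had -0.20 (-0.45 to 0.05), while the other 3 probe sets of *GABARAPL1* gave 0.01 to 0.16. By replicate number, 1 of the 17 had an unadjusted F p under 0.05, against 15.4% of all genes above background: *LHFPL4*, with means of 9.47, 9.65 and 9.74 and an adjusted p of 0.34 in limma.

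Of 16 genes listed as partners and effectors of GABA-B receptors, 15 had a probe set and 11 were above the limit, beside 64.9% of all genes. The auxiliary subunit genes *KCTD12* (8.88) and *KCTD16* (6.34) and the G protein genes *GNAO1* (8.87), *GNAI1* (10.43) and *GNB1* (10.53) were above it. The potassium channel genes *KCNJ5* (4.70), *KCNJ6* (4.33) and *KCNJ9* (5.02), of the family that GABA-B receptors open in neurons, were not. None passed between treatments. Of the 11, 7 had higher and 4 lower values, with a median of 0.03, where 51.0% of all genes above background had higher values. *RGS7*, a regulator that ends G protein signals, had 0.16 (-0.11 to 0.44), with -0.07 on its other, dim probe set, and *GNB1* had -0.14 (-0.40 to 0.12). By number, 3 of the 11 had an unadjusted F p under 0.05 and none passed after adjustment. Over all 11836 genes above background that share was 15.4%. *KCTD12* had number means of 9.03, 8.69 and 8.93, *KCTD16* had 6.49, 6.21 and 6.32 and *RGS7* had 7.77, 7.99 and 8.08. Both KCTD genes were lowest in replicate 2, the number in which 11721553_a_at and 11721552_a_at of *GABBR1* were highest. The KCTD genes were highest in replicate 1, as was 11730725_a_at of *GABBR1*. A relation between these genes was not tested, and other probe sets of the KCTD genes were not read by number.

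Chloride transporters and their kinases set the direction in which chloride flows through GABA-A channels. All 8 of 10 listed genes that had a probe set were above the limit, beside 64.9% of all genes. *SLC12A2*, which brings chloride into cells, measured a mean of 8.38, and *SLC12A5*, the neuronal exporter, 6.48. None passed between treatments. Of the 8, 2 had higher and 6 lower values, with a median of -0.03, where 51.0% of all genes above background had higher values. The kinase gene *WNK3* had 0.11 (-0.08 to 0.29) and the potassium-chloride exporter gene *SLC12A7* had -0.09 (-0.29 to 0.10), while its other probe set, also above the limit, gave 0.10. By number, none had an unadjusted F p under 0.05. The smallest p belonged to *CLCN3*, with means of 10.56, 10.48 and 10.33, and to *WNK1*, with 10.08, 9.94 and 10.04.

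**Figure D4:**
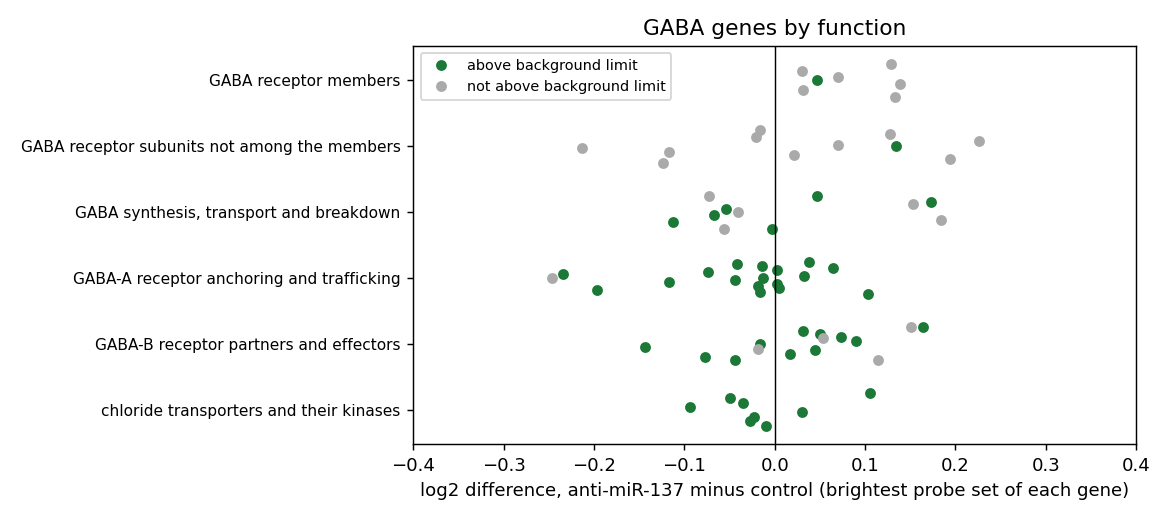
Log2 difference, anti-miR-137 minus control (horizontal axis), of the brightest probe set of each gene, by functional list (rows); green points are genes above the background limit and grey points are not. The brightest probe sets of the 7 members have differences between 0.03 and 0.14 on the deposited scale. Above 0 are 5 of 7 after quantile normalization and 3 of 7 with the RNA integrity number as a covariate. The other 5 rows have points on both sides of 0 on the deposited scale.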

How the data were processed

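Total RNA of 6 SH-SY5Y samples was labelled with biotin and hybridised to 1-colour oligonucleotide arrays. Per the submitters' processing notes, the authors used RMA and R 3.0.1, and the values they deposited are on a log2 scale, 1 per probe set. RMA corrects background and gives all arrays like distributions, which hides any change common to every transcript. The genome build behind the probe sets is not given in the sources used here. Of 49495 probe sets, 102 manufacturer's controls were left out. Genes came from the platform annotation. 45278 probe sets had 1 symbol, 1333 had several and 2782 none; 45208 matched the RefSeq gene table, which changed 0 symbols.

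All 49393 probe sets were fitted with limma 3.58.1 in R 4.3.3 (two-sided, Benjamini-Hochberg over all, threshold 0.05), with no filter: treatment alone, and replicate number with treatment as a term. No gene set was tested. Listed genes were read from the probe set with the highest mean. From each list the 2 genes above background with the smallest p in each test were named; further genes were named for their role, after their values were seen. For a member above background, the 3 genes most like it were named. The members and lists were chosen with earlier results of these data known. Alternatives were filters at the 40th and 60th percentile, a variance prior with trend, array weights, further normalization, probe set choice, the RNA integrity number as a covariate, a block for replicate number, other background limits and leaving out each array. The steps were tested on simulated data with added differences and independent noise in each array. Noise shared by arrays of the same number was not simulated. The simulation therefore does not show how often a difference would be found in these arrays.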

Additional observations from a re-analysis of the deposited data

How the results depend on the processing

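The count of members past the adjusted threshold was 0 under each of the 16 alternatives run for the treatment test and each of the 16 for the number test, with 0 to 0 when an array was left out. At an unadjusted p under 0.05 the treatment test had 0 members, 1 with array weights, and between 0 and 3 when single arrays were dropped (3 without control replicate 1). For array weights and the dropped arrays, the share over all probe sets was not computed. The number test had 4, and 2 with the filter at the 40th percentile, 1 with the filter at the 60th and 2 among probe sets above background (chosen after seeing the data), since these tested 3, 1 and 3 members; it had 0 to 4 with an array left out. Of 18 members, 3 were above background, 1 with the 99th percentile, 0 with the other reference and 2 to 3 with an array left out. Signs turned for *GABRA2* with quantile normalization (-0.0050) and the RNA integrity number (-0.063), for *GABRB1* with these (-0.0064 and -0.034) and with the mean of its probe sets (-0.013), and for *GABRA5* (-0.040) and *GABRB2* (-0.023) with the RNA integrity number; the cause was not tested. With an array left out, the difference ranged from -0.041 to 0.091 for *GABRA2*, -0.0015 to 0.20 for *GABRA5*, -0.068 to 0.18 for *GABRB1*, -0.032 to 0.12 for *GABBR1*, 0.042 to 0.24 for *GABRA3*, 0.041 to 0.22 for *GABRB2* and 0.064 to 0.24 for *GABBR2* (the highest of the last 3 without control replicate 1). Over all probe sets, deviations from the group means correlated between arrays of the same number for replicate 1 (0.35) and replicate 3 (0.46). For replicate 2 the correlation was -0.012. Among probe sets above background the correlations were higher, at 0.55, 0.063 and 0.65 for replicates 1, 2 and 3. The labels do not say what the numbers mark, so the main test did not take the numbers as pairs. Within a treatment the deviations of the 3 arrays sum to 0. The low value for replicate 2 thus depends on the other arrays and cannot decide whether the numbers are pairs. With the replicate number as a block, 0 members passed and 0 had an unadjusted p under 0.05. The brightest probe set of *GABBR1* then had an unadjusted p of 0.49 in limma, against 0.66 without the block.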

Other observations

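One probe set, 11723069_at, is annotated to both *UBD* and *GABBR1*, which lie close together in the RefSeq gene order, and was therefore not counted among the members. It measured 4.62, 4.69 and 4.65 in control replicates 1, 2 and 3 and 4.57, 4.79 and 4.47 in anti-miR-137 replicates, within background in all 6 arrays. Its log2 difference was -0.04, with a 95% confidence interval from -0.26 to 0.17. Its highest and lowest arrays, anti-miR-137 replicates 2 and 3, were also the highest and lowest arrays of 11721552_a_at.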
